A study of Mus musculus with 12 samples.

Results

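The genes described here encode the constitutive subunits of the mouse 26S proteasome. They were taken as the rows of the gene table whose symbol was Psma, Psmb, Psmc or Psmd followed by a number, without the immunoproteasome subunits Psmb8, Psmb9 and Psmb10. This gave 36 of 54446 gene identifiers. By role they were 8 genes of the alpha ring of the 20S core, 8 of its beta ring, 6 ATPases of the 19S cap, 11 further 19S subunits and 3 assembly chaperones of the cap. Of the 36, 35 passed the filter on low counts. Psmb11, a beta subunit known from the thymus, did not: its counts were 0 in WT medium, 2, 1 and 0 in WT LPS, 0 in KO medium and 3, 2 and 0 in KO LPS. A count of 0 allows up to 3 counts, or 0.143 to 0.229 CPM (counts per 1000000 counts of a library), by counting error alone.

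The proteasome degrades proteins that carry ubiquitin chains. Its core is a barrel of alpha and beta rings in which Psmb6, Psmb5 and Psmb7 cut the substrate, and its cap binds, deubiquitinates, unfolds and threads the substrate into the barrel. In macrophages that meet interferon or bacterial products, Psmb9, Psmb8 and Psmb10 can take the places of these catalytic subunits in newly made particles, which are then called immunoproteasomes and are known for supplying peptides for antigen presentation.

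RNA was sequenced from bone marrow-derived macrophages, cells grown from mouse marrow with macrophage colony-stimulating factor in RPMI 1640. All mice carried Nlrc3 alleles flanked by loxP sites (NLRC3 fl/fl). The WT mice had no Cre (LysM-Cre- NLRC3 fl/fl), and the mice called KO here (NLRC3ΔMac, LysM-Cre+ NLRC3 fl/fl) carried Cre under the LysM promoter, which is active in myeloid cells. Cells were left in medium or treated with lipopolysaccharide (LPS), the cell wall component that Toll-like receptor signalling detects, for 12 h, and each of the 4 groups had 3 libraries of 13082947 to 20960505 counts. The study asked how macrophages without NLRC3, a cytosolic sensor of the NLR family known to dampen innate immune signalling, respond to LPS. Whether the 3 libraries of a group stem from separate animals is not in the labels. The p-values therefore reflect the spread among these libraries alone, and that spread may be technical.

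The targeted gene matched the label of the KO medium libraries and went against that of the KO LPS libraries. In WT medium Nlrc3 had 9.89, 13.6 and 10.4 CPM. The WT LPS libraries had 0.796, 4.39 and 1.40 CPM. In KO medium, by label, it read 0.996, 0.850 and 0.876 CPM, but in KO LPS it read 15.6, 8.29 and 6.04 CPM. The deposited table counts reads per gene and not per exon, so reads from outside the deleted part of Nlrc3 are included. The summed level of 6 LPS-responsive genes (Nos2, Il6, Il1b, Acod1, Tnf and Ccl5) was 328 to 504 CPM in WT medium and 9106 to 19431 CPM in WT LPS. It was 16685 to 16751 CPM in KO medium and 193 to 330 CPM in KO LPS, both as labelled. On both measures the KO LPS libraries lay nearer to WT medium and the KO medium libraries nearer to WT LPS. Every direction below that uses a KO library is therefore given for the library as labelled.

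Cell type markers were read in the same tables. All 8 macrophage markers were present, with a summed level of 32183 to 35761 CPM in WT medium, 12620 to 19337 in WT LPS, 10062 to 12947 in KO medium and 21231 to 34432 in KO LPS. The 9 neutrophil markers summed to 826 to 1222 CPM in WT medium, 954 to 4370 in WT LPS, 1090 to 3101 in KO medium and 1099 to 6866 in KO LPS. Sums were at most 86.7 CPM for 6 B cell markers, 263 CPM for 6 stromal markers and 5.72 CPM for 3 T cell markers, and none of these markers was at 0 in all libraries of a group. The part of these cells in the results below was not tested. In bulk RNA, fewer cells of a type and less RNA per cell cannot be told apart.

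Within groups, proteasome transcripts moved together by library. Levels are given below in scaled CPM, that is CPM corrected by the TMM factors used in the fit. The summed level of the 36 genes was 2257, 5488 and 2280 scaled CPM in WT medium, 6684, 3728 and 5127 in WT LPS, 6988, 8832 and 4858 in KO medium, and 4623, 2834 and 2858 in KO LPS. WT medium replicate 2 was the highest of its group for 34 of the 35 genes tested, and KO LPS replicate 1 for 35 of 35. KO medium replicate 3 was the lowest of its group for 34 of 35 and WT LPS replicate 2 for 28 of 35. The share of all counts in gene models over 4000 bases moved with these sums: it was 49.9%, 36.7% and 50.2% in WT medium, 39.0%, 48.2% and 42.5% in WT LPS, 36.8%, 34.2% and 45.4% in KO medium, and 40.6%, 45.3% and 45.1% in KO LPS. In each group the library with the smallest share of long genes had the largest proteasome sum. Results that rest on WT medium replicate 2 are given with and without it below. It was picked out by the levels of these same genes, so leaving it out was bound to raise most differences from WT medium. KO LPS replicate 1 was also highest in these genes, so leaving it out was bound to lower most KO LPS levels relative to the other groups. A fit with the long-gene share as a covariate, also chosen after the data were seen, is given beside the counts. Since that share moved with the sums of these same genes, fitting it was bound to take up part of their spread within groups.

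**Figure D1:**
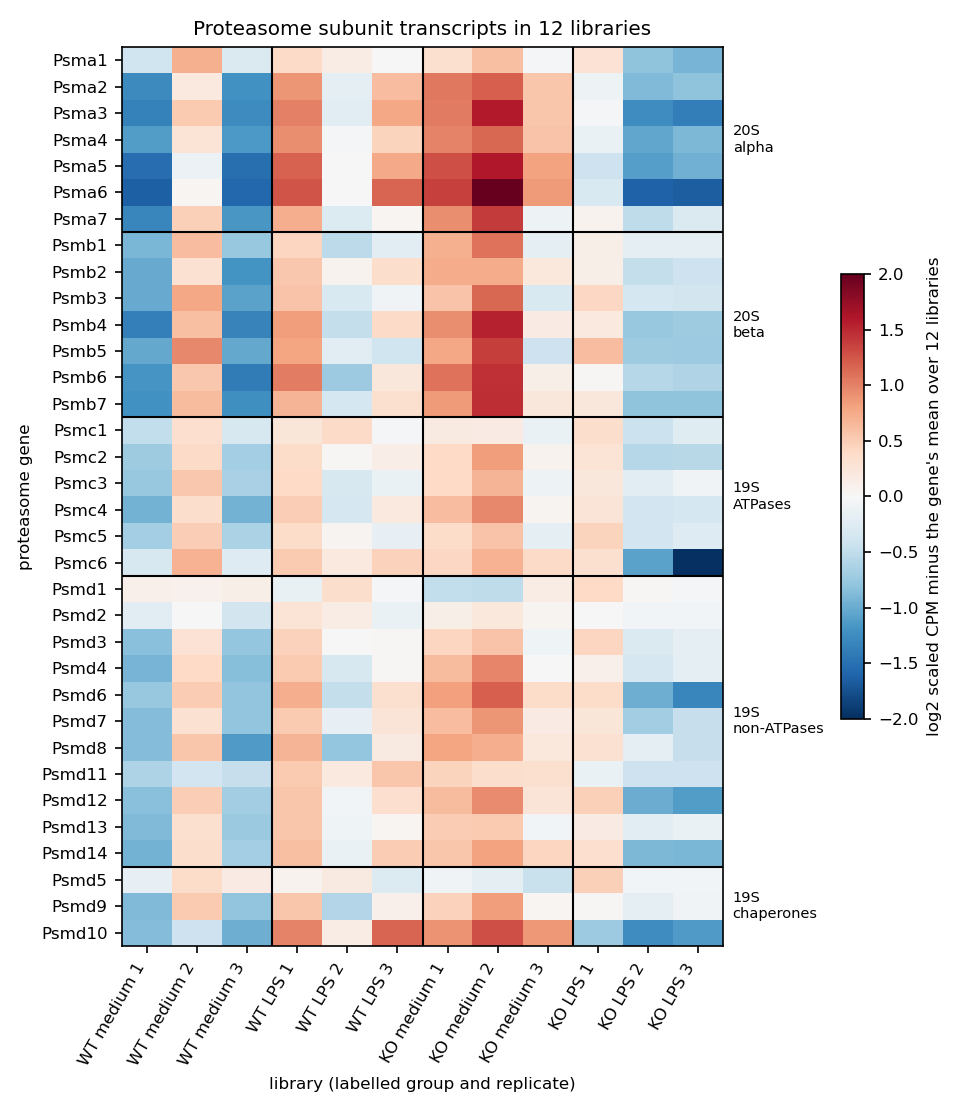
Level of 34 proteasome genes (rows, by role) in 12 libraries (columns, by labelled group), as log2 scaled CPM minus the gene's mean over the libraries, without the near-silent Psma8 and Psmb11. The alpha ring genes Psma2 to Psma6 and Psmd10 carry the strongest contrast between groups, and WT medium replicate 2 and KO LPS replicate 1 stand above the other libraries of their groups in nearly every row.

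Per length, the 36 transcripts covered a wide range. In FPKM, the deposited level per kilobase, Psma6, the alpha 1 subunit, was the highest, with a mean of 236.5 ± 152 (SD over 12 libraries) and a range of 75.5 to 576. Psmb6, the caspase-like catalytic subunit, had a mean of 145 ± 61.6 FPKM and Psma5, the alpha 5 subunit, 110 ± 53.1 FPKM. At the low end of the subunits stood Psmd11 at 10.4 ± 1.21 FPKM and Psmd1, a scaffold of the cap, at 11.8 ± 4.32 FPKM. The cap chaperones Psmd5 and Psmd9, which leave the finished particle, were lower still, both at a mean of 4.42 FPKM. The gene model lengths implied by counts and FPKM were 1234 bases for Psma6, 1872 for Psmb6 and 1321 for Psma5. They were 6383 for Psmd11, 7265 for Psmd1, 7230 for Psmd5 and 7248 for Psmd9. The part of these lengths in the ranking was not tested. Psma8, an alpha subunit known from the testis, was near silent: 0.908, 0.903 and 0.828 FPKM in WT medium, 0.588, 0.141 and 0.287 in WT LPS, 0.359, 0.209 and 0.0796 in KO medium, and 0.671, 0.355 and 0.344 in KO LPS. In FPKM its WT medium libraries lay above those of the other 3 groups, at no more than 30 counts in any library. In scaled CPM its WT medium and WT LPS libraries overlapped. Relative to its mean, Psmd11 varied least of the 36 in FPKM over the 12 libraries, from 8.71 to 12.4.

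With LPS, 3 of the 35 proteasome genes tested rose in WT macrophages at an adjusted p under 0.05 and none fell. Over all 13773 genes tested, 11.9% were called higher and 6.46% lower, so the count of members called higher was not above that background. The genes called were Psmd10, which encodes gankyrin, an assembly chaperone of the cap that binds the ATPase Psmc4, Psma5 of the alpha ring, and Psmd11, the cap subunit that clamps the cap to the core. The median log2 difference of the 35 members was 0.52, beside -0.06 for all genes, and 32 of 35 were above 0. That median depends on the scaling: with libraries scaled by total counts only, the median of all genes moved to -0.64 and that of the members to -0.035, with 2 members called higher and 0 lower (background 7.5% and 23.2%).

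Psmd10 (chrX:140948429-140956728, minus strand) stood at 22.3, 30.6 and 20.7 scaled CPM in WT medium and at 81.1, 44.9 and 91.01 in WT LPS. The groups did not overlap, with WT LPS replicate 2 well below the other LPS libraries. The difference was 2.95-fold, or 1.56 ± 0.31 (SE) on the log2 scale, with an adjusted p of 0.00473 in edgeR's quasi-likelihood test. Psmd10 stayed called whichever library was left out, and with libraries scaled by total counts only it was higher by 0.95 ± 0.25 (log2).

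Psma5 (chr3:108256926-108279974, plus strand) stood at 44.98, 119 and 45.4 scaled CPM in WT medium and at 291, 129 and 219 in WT LPS. The groups did not overlap, although WT medium replicate 2 and WT LPS replicate 2 lay close together. The difference was 1.61 ± 0.44 (log2, SE), a 3.05-fold rise with an adjusted p of 0.0244. Leaving out WT LPS replicate 1 or 3, or WT medium replicate 1 or 3, took the adjusted p to between 0.0862 and 0.102.

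Psmd11 (chr11:80428615-80473248, plus strand) stood at 43.1, 50.4 and 48.1 scaled CPM in WT medium and at 95.1, 75.2 and 96.9 in WT LPS. Its libraries were close within each group and did not overlap between them. The rise was 1.89-fold, 0.92 ± 0.21 on the log2 scale, with an adjusted p of 0.00988. Without WT LPS replicate 3 or without WT medium replicate 1, the adjusted p was 0.0593 and 0.0575, and with total-count scaling Psmd11 was not called.

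Psma6, the member with the highest level per length, missed the threshold. The gene (chr12:55384222-55418454, plus strand) stood at 76.6, 245 and 79.7 scaled CPM in WT medium and at 568, 237 and 531 in WT LPS. The groups overlapped, since WT medium replicate 2 lay above WT LPS replicate 2. The difference was 1.74 ± 0.57 (log2, SE) with an adjusted p of 0.0552, which became 2.44 with an adjusted p of 0.0143 without WT medium replicate 2. Psma6 also passed without WT LPS replicate 2 (2.04, adjusted p = 0.0302) and without KO LPS replicate 1 (1.73, adjusted p = 0.0379).

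The promoters of these 4 genes are shown with those of the catalytic subunits Psmb5 and Psmb6, so that the 3 genes that rose in WT can be read beside 3 members that did not pass there. Each sequence is the 250 bases before a RefSeq transcript start (build GRCm38.p6), 5′ to 3′ on the gene's strand, and 2 starts are listed for Psma6. Capitals mark matches on either strand to 4 motifs: TGACNNNGC, the core of the antioxidant response element, CCAAT, the box bound by NF-Y, then CCGGAAG, the core of sites for ETS factors, and the interferon-stimulated response element, searched as GAAA, any 2 bases and GAAA.
Psmd10 (chrX:140956712-140956961, minus strand): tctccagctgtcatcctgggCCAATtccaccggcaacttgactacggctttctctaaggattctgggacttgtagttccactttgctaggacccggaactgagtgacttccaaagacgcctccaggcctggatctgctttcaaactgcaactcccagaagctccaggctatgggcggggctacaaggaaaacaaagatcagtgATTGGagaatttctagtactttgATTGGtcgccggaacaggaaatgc
Psmd11 (chr11:80428365-80428614, plus strand): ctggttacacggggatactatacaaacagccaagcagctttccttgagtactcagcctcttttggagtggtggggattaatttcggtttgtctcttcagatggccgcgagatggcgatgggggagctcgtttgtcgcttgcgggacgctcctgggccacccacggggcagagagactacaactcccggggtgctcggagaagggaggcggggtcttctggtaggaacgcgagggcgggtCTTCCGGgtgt
Psma5 (chr3:108256676-108256925, plus strand): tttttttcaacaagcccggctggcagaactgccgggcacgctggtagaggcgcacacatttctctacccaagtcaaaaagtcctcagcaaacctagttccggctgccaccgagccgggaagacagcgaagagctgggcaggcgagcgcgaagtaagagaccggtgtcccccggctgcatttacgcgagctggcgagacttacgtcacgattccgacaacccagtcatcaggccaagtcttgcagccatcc
Psma6, upstream start (chr12:55383972-55384221, plus strand): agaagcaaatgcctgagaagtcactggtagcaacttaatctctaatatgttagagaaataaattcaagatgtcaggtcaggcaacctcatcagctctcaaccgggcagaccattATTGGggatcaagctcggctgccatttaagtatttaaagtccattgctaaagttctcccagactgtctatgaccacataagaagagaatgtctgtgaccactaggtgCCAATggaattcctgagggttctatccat
Psma6, downstream start (chr12:55398575-55398824, plus strand): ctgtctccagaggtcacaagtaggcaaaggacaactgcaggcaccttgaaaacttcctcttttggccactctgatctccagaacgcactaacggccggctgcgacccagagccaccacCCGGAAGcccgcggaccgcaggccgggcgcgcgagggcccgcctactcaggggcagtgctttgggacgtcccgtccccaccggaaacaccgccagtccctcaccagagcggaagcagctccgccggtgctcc
Psmb5 (chr14:54617996-54618245, minus strand): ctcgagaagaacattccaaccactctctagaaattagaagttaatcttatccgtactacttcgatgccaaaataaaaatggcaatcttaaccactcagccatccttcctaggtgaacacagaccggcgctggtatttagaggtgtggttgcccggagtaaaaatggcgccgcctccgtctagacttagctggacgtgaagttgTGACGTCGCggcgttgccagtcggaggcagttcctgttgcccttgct
Psmb6 (chr11:70525107-70525356, plus strand): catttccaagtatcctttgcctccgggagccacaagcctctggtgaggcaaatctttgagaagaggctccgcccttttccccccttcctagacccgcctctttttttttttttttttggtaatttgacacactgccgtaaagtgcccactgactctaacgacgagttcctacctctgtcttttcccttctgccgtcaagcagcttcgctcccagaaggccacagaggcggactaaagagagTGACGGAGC
Psmd10 held CCAAT at 230 bases before its start and its reverse complement at 47 and 24 bases before it. Psmd11 held the reverse complement of CCGGAAG 11 bases before its start. Psma5 held no match in this stretch. Psmb5 and Psmb6 each held the antioxidant element core, 47 and 9 bases before their starts, and none of these 4 motifs besides.

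Promoters were found for 29 of the 36 members, in windows of 250 bases before to 50 after the start. CCGGAAG or its reverse complement was in 10 of these 29 genes, or 34.5%, beside 9.93% of 27025 genes in the table. CCAAT was in 12 genes (41.4%, beside 41.1% of all), TGACNNNGC in 5 (17.2%, beside 14.0%) and the interferon-stimulated element in 3 (10.3%, beside 3.99%). The members with the antioxidant element core were Psmb5, Psmb6, Psmc6, Psmd9 and Psmd12. No match of one motif overlapped a match of another among the 44 matches in member promoters. A match is a stretch of letters and does not show that a factor binds there.

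**Figure D2:**
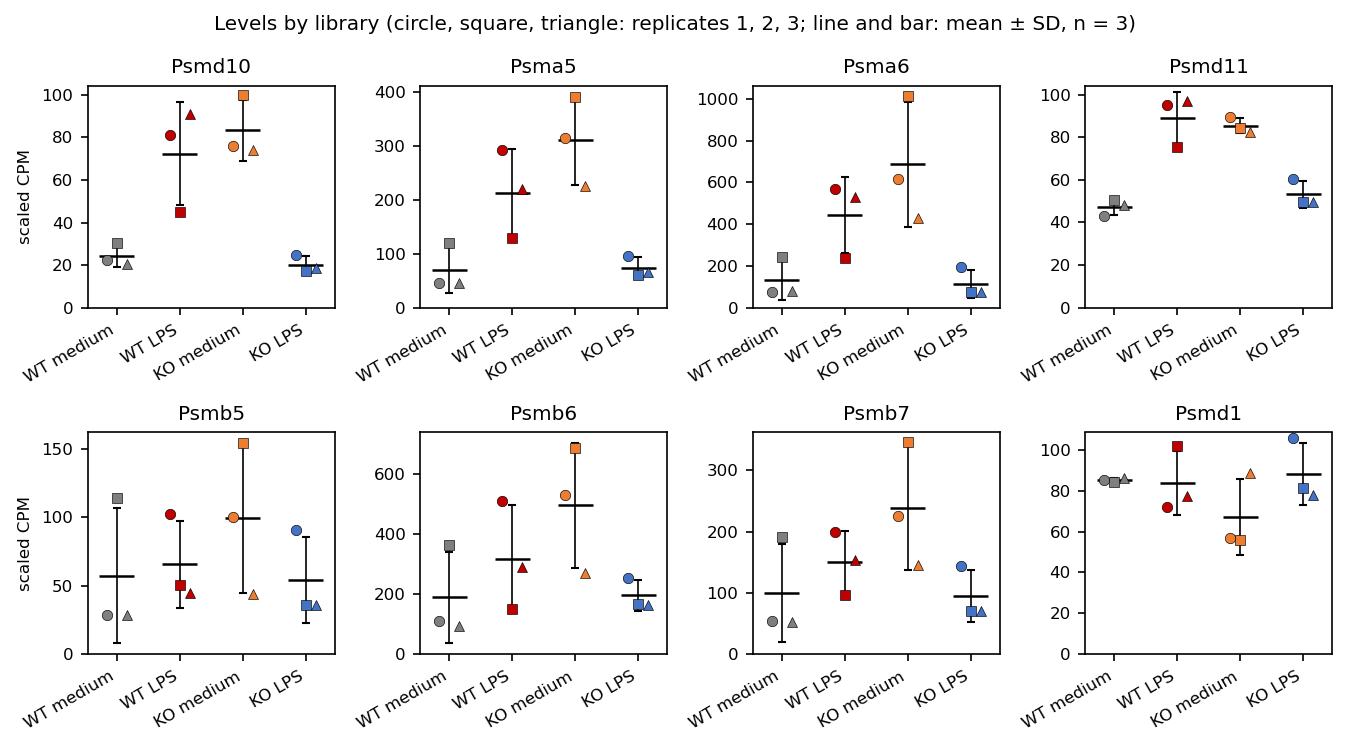
Level in scaled CPM of 8 proteasome genes in each library of the 4 labelled groups, with the group mean ± SD (n = 3). In Psmd10, Psma5 and Psmd11 every WT LPS and KO medium library lies above every WT medium library, while in Psma6, Psmb5, Psmb6 and Psmb7 WT medium replicate 2 lies inside or above the range of WT LPS.

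The catalytic subunits did not pass the test in WT. Psmb5 (chr14:54614119-54618022, minus strand), the chymotrypsin-like subunit, stood at 28.9, 114 and 29.0 scaled CPM in WT medium and at 102, 50.5 and 44.5 in WT LPS. Its difference was 0.20 ± 0.63 (log2, SE, adjusted p = 0.863), and the 95% interval of the fold ran from 0.487 to 2.70. Leaving out single libraries moved this difference between -0.30 and 1.12, and total-count scaling gave -0.32, so its direction was not settled.

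Psmb6 stood at 110, 364 and 94.4 scaled CPM in WT medium and at 510, 151 and 293 in WT LPS, a difference of 0.75 ± 0.57 (adjusted p = 0.404). Psmb7, the trypsin-like subunit, stood at 53.9, 192 and 53.2 in WT medium and at 199, 97.4 and 154 in WT LPS, a difference of 0.59 ± 0.54 (adjusted p = 0.489). In both genes WT medium replicate 2 lay inside the range of the LPS libraries. Psmb7 shares exon sequence with Nek6 on the other strand, which had up to 2759 counts, so its level is uncertain if strand was not used in counting.

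By role, the alpha ring had the largest median difference in WT. The median log2 difference was 1.01 over 8 alpha genes, 0.59 over 7 beta genes, 0.30 over 6 ATPases, 0.52 over 11 further cap subunits and 0.33 over 3 chaperones. Within the alpha ring, Psma2, Psma3 and Psma4, the subunits of alpha 2, alpha 7 and alpha 3, differed by 1.08 ± 0.44, 1.02 ± 0.56 and 1.00 ± 0.43, and none of these 3 passed the test. Psma1, the alpha 6 subunit, differed by only 0.08 ± 0.38 and Psma7, alpha 4, by 0.65 ± 0.51. No ATPase passed: their differences ran from 0.18 (Psmc3) to 0.53 (Psmc4). In the cap, Psmd14, the deubiquitinase of the lid, differed by 0.67 ± 0.41, Psmd4, a ubiquitin receptor, by 0.44 ± 0.39, and the scaffolds Psmd1 and Psmd2 by -0.03 ± 0.25 and 0.29 ± 0.22. Of the chaperones, only Psmd10 passed, while Psmd5 and Psmd9 differed by -0.13 ± 0.25 and 0.33 ± 0.40.

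Without WT medium replicate 2, the count of members called higher in WT LPS went from 3 to 11, beside a background of 11.9%, with 0 called lower beside 7.93%. The 11 were Psma2, Psma3, Psma4, Psma5, Psma6, Psma7, Psmb2, Psmb4, Psmd10, Psmd11 and Psmd13. The library left out was picked by its high levels of these same genes, so these calls are no separate support. With the long-gene share as a covariate, 12 members were called higher and 0 lower, beside a background of 18.7% higher. There Psmd10 differed by 1.43 ± 0.21, Psma6 by 1.56 ± 0.26 and Psma5 by 1.46 ± 0.17 (log2, SE). The covariate was chosen after it was seen to move with the sums of these genes, so its calls are no separate support. The median difference of the 8 members with gene models over 4000 bases was 0.31, beside -0.06 for the 5806 long genes tested. For the 26 shorter members with a length it was 0.55, beside -0.03 for 6174 shorter genes.

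**Figure D3:**
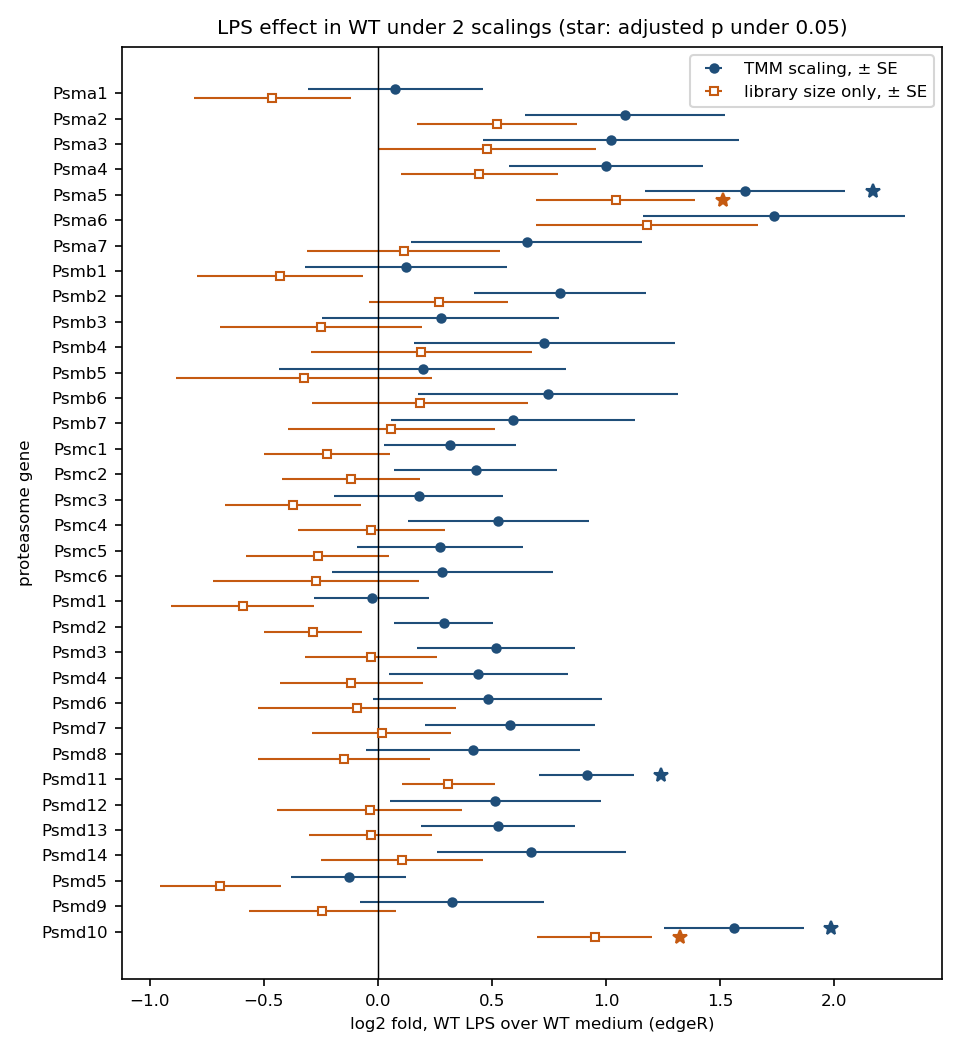
Log2 difference between WT LPS and WT medium for 34 proteasome genes, with TMM scaling (filled circles) and with libraries scaled by total counts only (open squares); bars are SE and stars mark an adjusted p under 0.05. Total-count scaling shifts every gene to the left, and Psmd10 and Psma5 carry a star under both scalings.

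Under LPS, the libraries labelled KO were compared with WT to ask what loss of NLRC3 changes in stimulated cells. With KO LPS as labelled, 4 of 35 members were called lower than in WT LPS and 0 higher, beside backgrounds of 13.7% lower and 10.4% higher. The median difference was -0.45, beside 0.06 for all genes, and it became 0.10 with total-count scaling, where the median of all genes was 0.57 and 3 members, Psmd10, Psma5 and Psma6, were called lower and 0 higher (background 8.67% and 25.3%). Psmd10 stood at 24.7, 17.2 and 18.6 scaled CPM in KO LPS, below all 3 WT LPS libraries, a difference of -1.84 ± 0.31 (log2, SE, adjusted p = 0.0017). Psma5 stood at 96.7, 60.3 and 66.1, a difference of -1.52 ± 0.44 (adjusted p = 0.0263). Psma6 stood at 193, 77.8 and 75.8, a difference of -1.95 ± 0.58 (adjusted p = 0.0297), and Psmd11 at 60.3, 49.5 and 49.7, a difference of -0.74 ± 0.21 (adjusted p = 0.0225). None of the 4 overlapped with WT LPS. Of the 35 members, 5 were lower and 0 higher without overlap, beside 19.7% and 18.3% of all genes. Psmd10 stayed called without any one library, while Psma5, Psma6 and Psmd11 each lost their call without KO LPS replicate 2 or 3 or WT LPS replicate 1 or 3.

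No other member passed the test, and 2 of the 35, Psmd1 and Psmd5, were above 0. Psma2, Psma3 and Psma4 differed by -1.05 ± 0.44, -1.35 ± 0.57 and -1.13 ± 0.43, with adjusted p between 0.0742 and 0.102. Psmb5 stood at 90.8, 36.1 and 35.7 scaled CPM in KO LPS and differed by -0.28 ± 0.63, Psmb6 at 255, 169 and 165 with -0.69 ± 0.57, and Psmb7 at 145, 70.9 and 71.0 with -0.65 ± 0.54. In all 3 catalytic genes KO LPS replicate 1 lay inside the WT LPS range, as did all KO LPS libraries of Psmb6, and none passed. Without WT medium replicate 2, which is in neither group but enters the shared spread, 7 members were called lower (background 15.1%). Without KO LPS replicate 1, 9 members were called lower and 0 higher, beside 2234 and 1859 of 14257 genes. That library had the highest levels of these same genes in its group, so the calls made without it are no separate support. With the long-gene covariate 14 were called lower and 0 higher (background 21.1% and 21.6%), among them Psmb6 at -0.51 ± 0.17 and Psmb7 at -0.61 ± 0.18.

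In medium, 6 of 35 members rose above WT in the cells labelled KO and 0 fell, beside backgrounds of 14% higher and 12.3% lower. The median was 0.86, beside -0.02 for all genes, and 0.08 with total-count scaling, where all genes had a median of -0.85. Psmd10 stood at 76.0, 99.9 and 74.1 scaled CPM in KO medium, 1.76 ± 0.31 above WT medium (log2, SE, adjusted p = 0.00188). Psma5 stood at 315, 390 and 225, a difference of 2.15 ± 0.45 (adjusted p = 0.00481), and Psma6 at 615, 1012 and 429, a difference of 2.36 ± 0.59 (adjusted p = 0.0121). Psma2 differed by 1.54 ± 0.44, Psma4 by 1.43 ± 0.43 and Psmd11 by 0.85 ± 0.21, with adjusted p of 0.0241, 0.0289 and 0.0108. All 6 lay above WT medium in 3 of 3 libraries. Of the 35 members, 9 were higher and 1 lower without overlap in scaled CPM, beside 21.2% and 21.5% of all genes. Psmd10 and Psma5 stayed called without any one library. Psma2 and Psma4 each lost their call without KO medium replicate 1 or 2 or WT medium replicate 1 or 3, Psma6 without KO medium replicate 2 or WT medium replicate 1 or 3, and Psmd11 without KO medium replicate 1 or WT medium replicate 1.

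This comparison changed most with WT medium replicate 2, which was picked out for its high levels of these same genes. The calls made without that library are therefore no separate support. Without it, 27 of 35 members were called higher, beside a background of 17.2%, and the catalytic subunits were among them: Psmb5 at 1.74 ± 0.61, Psmb6 at 2.23 ± 0.54 and Psmb7 at 2.11 ± 0.49. With all libraries these 3 stood at 100, 154 and 44.2 scaled CPM (Psmb5), 531, 687 and 271 (Psmb6), and 225, 345 and 145 (Psmb7) in KO medium, and none passed the test. With the long-gene covariate 12 members were called higher and 1, Psma8, lower (background 17.6% and 14.3%). With total-count scaling 3 were called higher, Psmd10, Psma5 and Psma6, and 3 lower, Psmd1, Psmd5 and Psma8 (background 7.77% and 40.5%).

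Between the libraries labelled KO, 7 members were lower with LPS than in medium and 0 higher, beside backgrounds of 15.3% lower and 15.1% higher. The median was -0.73, beside 0.04 for all genes, and 0.034 with total-count scaling, where all genes had a median of 0.78, 3 members were called higher and 3 lower (background 38.6% and 8.55%). Psmd10 differed by -2.05 ± 0.31 (adjusted p = 0.000773), Psma5 by -2.06 ± 0.45 (adjusted p = 0.00523) and Psma6 by -2.57 ± 0.59 (adjusted p = 0.00725). Psma2, Psma3, Psma4 and Psmd11 differed by -1.51 ± 0.44, -1.87 ± 0.57, -1.56 ± 0.43 and -0.68 ± 0.21. Psma3 stood at 254, 369 and 181 scaled CPM in KO medium and at 121, 52.0 and 47.3 in KO LPS. In scaled CPM, no library of the 7 genes overlapped between the groups. In FPKM, Psma3 and Psmd11 did overlap. Psmd11 had 9.85, 9.25 and 10.2 FPKM in KO medium and 11.4, 9.63 and 9.57 in KO LPS. The Psmd11 difference reversed direction with total-count scaling. Of the 35 members, 15 were lower and 1 higher without overlap in scaled CPM, beside 22.5% and 23.3% of all genes. The 7 genes called include 5 of the alpha ring and no beta subunit or ATPase. The 7 beta genes tested were lower as well, from -1.34 to -0.64, as were the 6 ATPases, from -1.12 to -0.15. Psmb7 and Psmb6 had an adjusted p of 0.0850 and 0.0980 in edgeR's test. Psmd10, Psma5 and Psma6 stayed called without any one library, and each of the other 4 lost its call without KO LPS replicate 2 or 3 or KO medium replicate 1 or 2. Without WT medium replicate 2, 12 members were called lower and 0 higher (background 16.8% and 16.6%), and with the long-gene covariate 11 lower and 0 higher (background 19.9% and 19.8%). Without KO LPS replicate 1, 14 members were called lower and 0 higher, beside 2493 and 2602 of 14257 genes. That library had the highest levels of these same genes in its group, so the calls made without it are no separate support.

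The LPS difference itself was tested between the labelled genotypes as an interaction, the KO difference minus the WT difference. Of 35 members, 9 had a lower LPS difference in the libraries labelled KO and 0 a higher one, beside backgrounds of 20.6% and 20.5%. The count of 9 lower lay near its background. These 9 were Psma2, Psma3, Psma4, Psma5, Psma6, Psmb2, Psmd10, Psmd11 and Psmd14. For Psma6 the interaction was -4.31 ± 0.82 (log2, SE, adjusted p = 0.00145), for Psma5 -3.67 ± 0.63 (adjusted p = 0.000681) and for Psmd10 -3.61 ± 0.44 (adjusted p = 6.51e-05). In the same libraries the LPS-responsive genes were low with LPS and high in medium among those labelled KO, and their part in this result was not tested. The covariate gave 17 members lower and 0 higher (background 25.3% and 26.4%), leaving out WT medium replicate 2 gave 25 and 0 (background 22% and 22.1%), and total-count scaling gave 5 lower and 4 higher (background 11.2% and 47.9%). Psmb2 and Psmd14 lost this call without most single libraries, with an adjusted p of up to 0.0804 and 0.109, and the other 7 kept it without any one library. The calls made without WT medium replicate 2 are no separate support, since it was picked out by its levels of these same genes. The 5 comparisons share their libraries, so none is independent support for another.

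Compared crosswise, the libraries labelled KO medium differed in no member from WT LPS, and those labelled KO LPS in no member from WT medium, by edgeR's quasi-likelihood test. No gene of all 13773 passed in either comparison (background 0% in both directions), 0 members had an unadjusted p under 0.05 in either, and 270 and 1135 of all genes did. DESeq2 called 0 members in either comparison. Over all genes it called 1 higher in the first, and 37 higher and 2 lower in the second. With edgeR, leaving out KO LPS replicate 1 gave 140 genes higher and 105 lower in the second, leaving out KO medium replicate 1 gave 1 and 1 in the first, and testing without the low-count filter gave 2 and 1 in the first and 95 and 4 in the second. For Psmd10, KO medium minus WT LPS was 0.20 ± 0.30 and KO LPS minus WT medium was -0.28 ± 0.30. For Psma5 these differences were 0.54 ± 0.43 and 0.09 ± 0.43, and for Psma6 0.62 ± 0.56 and -0.21 ± 0.56. A p above the threshold does not show that the groups are alike: the median of the members was 0.35 in KO medium minus WT LPS, with 30 of 35 above 0, and 0.05 in KO LPS minus WT medium.

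Shares within the proteasome do not depend on the scaling between libraries, and were added after the data were seen. A share is a gene's percent of the summed counts of the 36 genes, so a larger share of one gene lowers those of the others. Psma6 took 3.39%, 4.46% and 3.49% in WT medium, 8.49%, 6.35% and 10.4% in WT LPS, 8.80%, 11.5% and 8.83% in KO medium and 4.17%, 2.74% and 2.65% in KO LPS. Psma5 took 1.99%, 2.17% and 1.99% in WT medium, 4.36%, 3.46% and 4.28% in WT LPS, 4.51%, 4.41% and 4.64% in KO medium and 2.09%, 2.13% and 2.31% in KO LPS. In both genes the WT medium and KO LPS libraries lay below all WT LPS and KO medium libraries, WT medium replicate 2 included. The alpha ring together took 20.7% to 24.3% in WT medium, 27.7% to 33.5% in WT LPS, 32.6% to 35.04% in KO medium and 18.9% to 22.1% in KO LPS.

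Between WT medium and WT LPS, the share was higher without overlap for 5 of 35 genes, Psma2, Psma4, Psma5, Psma6 and Psmd10, and lower without overlap for 8. In scaled CPM the same comparison gave 3 higher and 0 lower without overlap, where 18.5% of all genes were higher and 15.4% lower without overlap. These percents are for scaled CPM and are no background for shares. No background was taken for shares, so whether 5 higher and 8 lower exceed it was not tested. Larger shares of some members lower those of the rest, so a lower share does not show a lower level. The 8 lower shares were those of Psma1, Psma8, Psmb1, Psmc3, Psmc4, Psmd4, Psmd6 and Psmd9. For the ATPase Psmc3 the share was 4.03%, 4.09% and 4.30% in WT medium and 3.04%, 3.32% and 2.75% in WT LPS, and it was 2.91%, 2.80% and 2.96% in KO medium and 3.89%, 4.66% and 5.11% in KO LPS. Psmc3 overlaps Slc39a13 on the other strand, which had up to 1005 counts beside at least 1686 for Psmc3. Psmc4, the ATPase that Psmd10 binds, took 2.75%, 2.76% and 2.71% in WT medium and 2.49%, 2.53% and 2.66% in WT LPS. Its share was 2.61%, 2.63% and 2.53% in KO medium and 3.09%, 3.22% and 3.27% in KO LPS. The KO LPS libraries thus lay above those of all other groups, WT medium included.

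**Figure D4:**
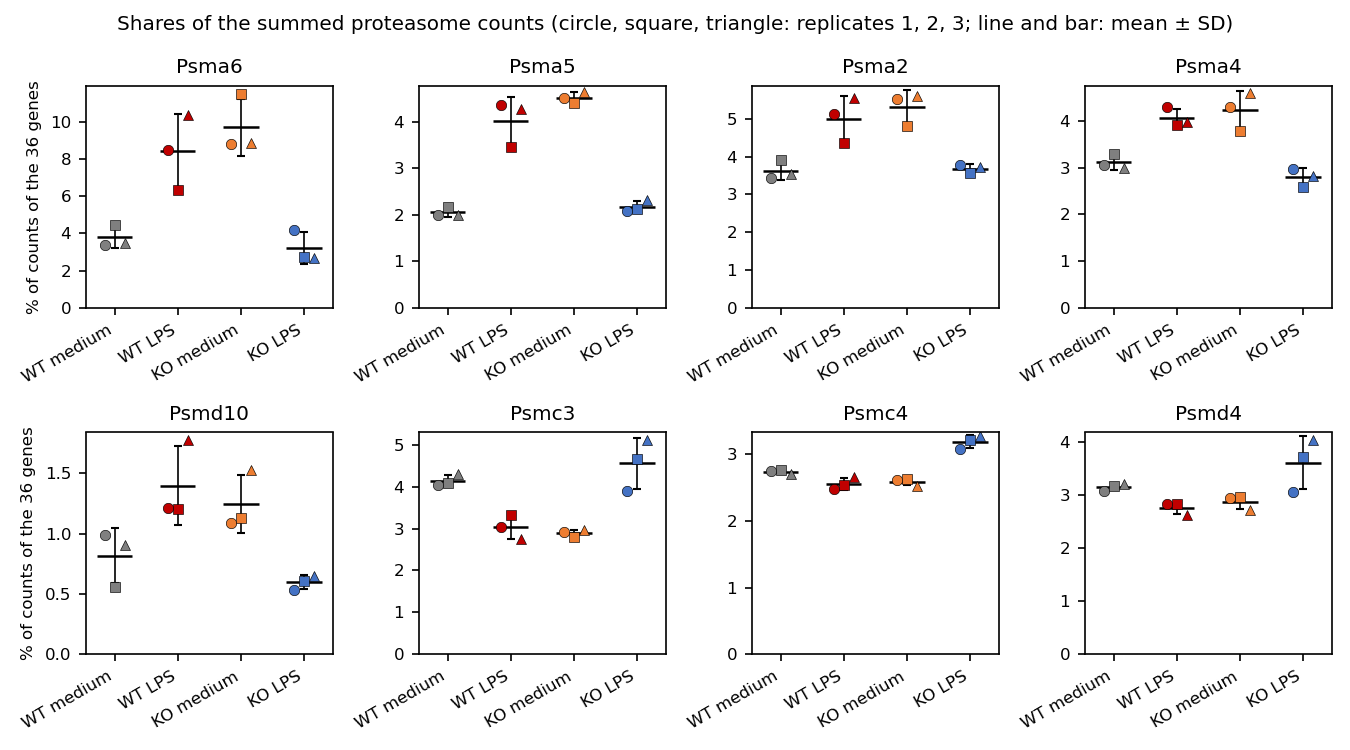
Percent of the summed counts of the 36 proteasome genes taken by 8 of them in each library of the 4 labelled groups, with the group mean ± SD (n = 3). Psma6, Psma5, Psma2 and Psma4 take larger shares in WT LPS and KO medium than in the other 2 groups, and Psmc3 and Psmd4 take smaller ones.

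The ratio of cap to core was taken as the summed FPKM of Psmc and Psmd genes over that of Psma and Psmb genes. It was 1.07, 0.717 and 1.09 in WT medium and 0.542, 0.788 and 0.573 in WT LPS, so the groups overlapped through their replicates 2. The log2 difference was -0.59 ± 0.26 (SE, n = 3 and 3, two-sided exact permutation test p = 0.2, where 3 against 3 cannot go below 0.1). The ratio was 0.512, 0.423 and 0.611 in KO medium and 0.861, 0.996 and 0.991 in KO LPS. These 2 groups did not overlap, with a log2 difference of 0.89 ± 0.17 (exact permutation p = 0.1). Of 16 ratio comparisons, none could pass at this number of libraries, and adjusted over the 16 the p were 0.107 and 0.2. Within each group, the libraries had the same order by the cap to core ratio as by the long-gene share. The part of that share in the ratio was not tested. Genes with high FPKM weigh most in these sums, such as Psma6 with 576 FPKM in KO medium replicate 2. The ratio therefore does not weigh all subunits equally.

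Each catalytic subunit was then set against the immunoproteasome subunit that can replace it. The FPKM ratio of Psmb5 to Psmb8 was 0.621, 1.52 and 0.845 in WT medium and 0.310, 0.274 and 0.168 in WT LPS. For Psmb6 to Psmb9 it was 5.94, 15.4 and 7.60 in WT medium and 3.19, 1.90 and 2.499 in WT LPS. For Psmb7 to Psmb10 it was 0.429, 0.706 and 0.558 in WT medium and 0.106, 0.205 and 0.136 in WT LPS. All 3 ratios were lower in every WT LPS library than in any WT medium library, by -1.93 ± 0.47, -1.84 ± 0.46 and -1.95 ± 0.35 (log2, SE, n = 3 and 3, exact permutation p = 0.1 each, the smallest this design allows).

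The same ratios in the libraries labelled KO medium were 0.243, 0.287 and 0.206 for Psmb5 to Psmb8, 2.89, 3.25 and 2.79 for Psmb6 to Psmb9, and 0.0955, 0.104 and 0.170 for Psmb7 to Psmb10. In those labelled KO LPS they were 1.44, 0.682 and 0.498, then 11.8, 7.86 and 4.90, and 0.644, 0.482 and 0.395. None of the 3 ratios overlapped between KO medium and KO LPS, nor between KO LPS and WT LPS. The differences of KO LPS from WT LPS were 1.70 ± 0.53, 1.64 ± 0.42 and 1.79 ± 0.35, and those of KO medium from WT medium -1.93 ± 0.40, -1.58 ± 0.42 and -2.22 ± 0.33 (log2, SE). The exact permutation p was 0.1 for each. Psmb9 shares exon sequence with Tap1 on the other strand, so its level is uncertain if strand was not used in counting.

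**Figure D5:**
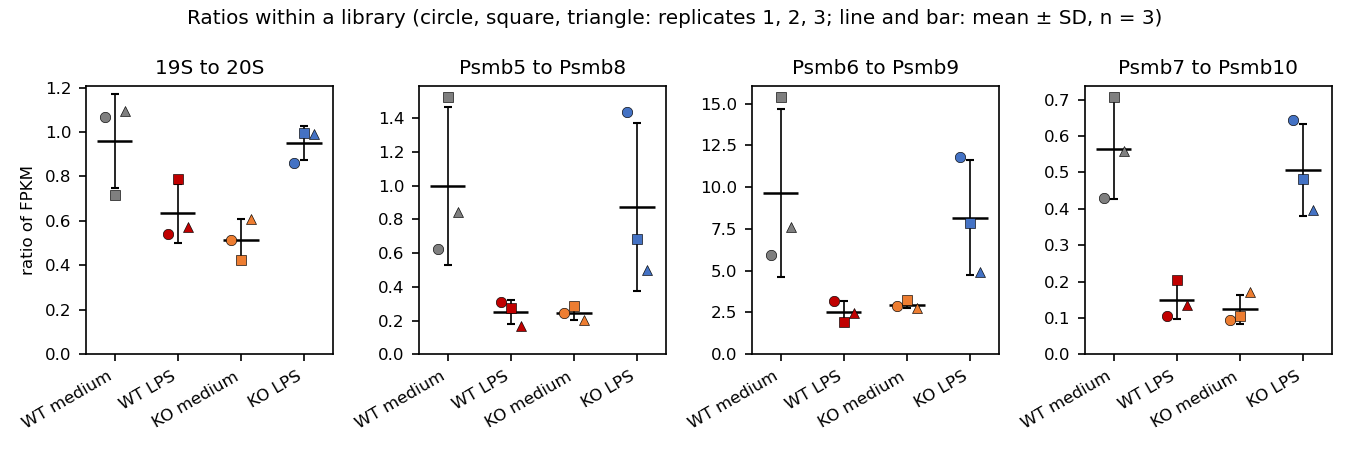
Ratio of FPKM within each library, of cap to core and of each catalytic subunit to its immunoproteasome counterpart, by labelled group with mean ± SD (n = 3). The 3 catalytic ratios separate WT medium and KO LPS from WT LPS and KO medium without overlap, and the cap to core ratio overlaps between WT medium and WT LPS.

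Among 38 further genes of the pathway that were tested, 9 rose with LPS in WT and 1 fell, beside the same backgrounds of 11.9% and 6.46%. All 3 immunoproteasome subunits rose, Psmb8 by 2.32 ± 0.41, Psmb9 by 2.71 ± 0.40 and Psmb10 by 2.83 ± 0.61 (log2, SE, adjusted p = 0.00251, 0.000858 and 0.00773). Both subunits of the PA28 activator, which caps the core without ubiquitin, rose as well: Psme1 by 2.03 ± 0.28 and Psme2 by 2.73 ± 0.56. Psme2 has a near-identical copy, Psme2b, so its value is uncertain. The ubiquitin gene Ubb rose by 1.03 ± 0.28, with the caution that reads of its repeated units can be shared, and Uba1, the main ubiquitin-activating enzyme, by 1.33 ± 0.27. Keap1, the adaptor that marks Nfe2l2 for degradation, rose by 1.53 ± 0.30, and the shuttle factor Ubqln2 fell by 1.38 on the log2 scale.

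None of the 6 genes listed for assembly and import passed in WT, and Pomp, which completes the maturing core, differed by 0.74 ± 0.48. None of the 6 cap subunits and associated factors outside the name pattern passed, nor did Nfe2l1, the transcription factor known to restore proteasome genes when the complex is inhibited, at 0.56 ± 0.26, or Nfe2l2 at -0.11 ± 0.33. In the libraries labelled KO LPS against WT LPS, 2 of the 38 were higher and 9 lower (background 10.4% and 13.7%), with Psmb8 at -2.05 ± 0.40 and Psme1 at -1.49 ± 0.28. In those labelled KO medium against WT medium, 10 were higher and 4 lower (background 14% and 12.3%), with Psmb8 at 2.90 ± 0.42 and Akirin2, the factor that brings the proteasome into the nucleus, at 0.67 ± 0.21. Between the KO libraries, 4 were higher and 10 lower with LPS (background 15.1% and 15.3%), and for the interaction 4 were higher and 16 lower (background 20.5% and 20.6%).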

How the data were processed

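Gene expression was measured by RNA sequencing of 12 libraries in 4 labelled groups of 3. The authors deposited whole-number read counts per gene, without normalization, and FPKM, which were those counts scaled by library total and gene length. Per the submitters' processing notes, reads were handled on mm10. Aligner, counter, annotation and strand setting were not given in the sources used here, and the labels name both a TruSeq and a KAPA Stranded kit. Counts were fitted with edgeR 4.0.16 in R 4.3.3 (TMM factors of 0.702 to 1.46, filterByExpr, glmQLFit and glmQLFTest) with 1 mean per group over all libraries, and p-values were adjusted by Benjamini-Hochberg over all 13773 genes tested. The smallest chi-square per degree of freedom between replicates was 22.3, so none was counted as a repeat. Ratios of FPKM were tested by exact permutation with scipy 1.17.1. The fit was tested on simulated data. Alternatives were other size factors, no filter, DESeq2 1.42.0, only the groups compared, a replicate block, each library left out, and the long-gene covariate. Members, roles, the pathway list, markers and motifs were chosen with earlier results of these data known. Library values are given for the catalytic subunits, the 2 called members with the smallest p in each comparison, the members with the highest and lowest FPKM, and members under the filter; Psma3 was added after its values were seen. Positions are from GENCODE M21 (GRCm38). Exons of 9 of 36 members overlap another gene, with 226 counts at most for Sirt3 (Psmd13) and 111 for Htr2b (Psmd1). The values of 1 gene of the pathway list are not reported here.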

Additional observations from a re-analysis of the deposited data

Results flagged for a closer look

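For 9 of the 35 proteasome genes tested, the LPS difference differed between the labelled genotypes by edgeR's test of the interaction (adjusted p under 0.05). The values, the KO difference minus the WT difference on the log2 scale, were -4.31 for Psma6, -3.67 for Psma5, -3.61 for Psmd10, -2.89 for Psma3, -2.59 for Psma2, -2.56 for Psma4, -1.65 for Psmd14, -1.62 for Psmb2 and -1.60 for Psmd11. Over all genes 20.6% had a negative interaction past the threshold, so the count of 9 among 35 members lay near that background. With total-count scaling 5 members were lower and 4 higher, beside 11.2% and 47.9% of all genes. In the same libraries Nlrc3 went against the label of KO LPS and the LPS-responsive genes against those of both KO groups, and their part in these values was not tested. Without WT medium replicate 2, 25 members had a negative interaction past the threshold, beside a background of 22%. That library was picked out by its high levels of these same genes, so the calls made without it are no separate support.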

How the results depend on the processing

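With total-count scaling the members called higher were 3 in KO medium against WT medium, 3 in KO LPS against KO medium and 4 in the interaction, and those called lower were 3, 3 and 5. The median member difference then reversed to -0.035 in WT, 0.10 in KO LPS against WT LPS, 0.034 between the KO groups and 0.070 in the interaction, Psmb5 to -0.32 in WT, 0.26 in KO LPS against WT LPS and 0.21 in the interaction, and Psmd11 to 0.059 between the KO groups; this scaling moved the median interaction of all genes from 0.11 to 1.43. The long-gene covariate, added after the data were seen, gave 12 members higher in WT, 14 lower in KO LPS against WT LPS, 12 higher and 1 lower in KO medium against WT medium, 11 lower between the KO groups and 17 lower in the interaction. It reversed Psmb5 to -0.060 in KO medium against WT medium and the median to -0.021 in KO medium against WT LPS. Fitting only the groups compared left 1 member higher in WT (1123 of 13040 genes) and a median of -0.014 in KO LPS against WT medium. For the interaction, 14 members were lower without the low-count filter (2844 of 27062 genes) and 15 by DESeq2 (3279 of 18098 genes). Leaving out 1 library at a time gave 1 to 11 members higher in WT, 1 to 9 lower in KO LPS against WT LPS, 2 to 27 higher in KO medium against WT medium, 3 to 14 lower between the KO groups and 7 to 25 lower in the interaction. Over all genes the same counts ran from 1069 to 1858, 1144 to 2234, 1329 to 2441, 1372 to 2493 and 2378 to 3183. Psmb5 then ranged from -0.30 to 1.12 in WT and from -0.87 to 0.18 in KO LPS against WT LPS, and the median from -0.19 to 0.60 in KO LPS against WT medium. Apart from the fits with fewer genes or samples, the cause of these changes was not tested. With a replicate block the members called were 3 higher in WT, 4 lower in KO LPS against WT LPS, 6 higher in KO medium against WT medium, 6 lower between the KO groups and 8 lower in the interaction, beside 1444, 1688, 1748, 1866 and 2652 of 13773 genes. Same-numbered libraries did not deviate together (r from -0.68 to 0.64), so the numbers were not taken as pairs. Some sample descriptions share a number: WT medium replicate 2 with WT LPS replicate 1, and WT medium replicate 3 with WT LPS replicate 2. These pairs had r of 0.63 and 0.47, and KO LPS replicate 2 with WT medium replicate 1, which share none, had 0.70. The descriptions are not explained in the labels, and pairing by them was not tested. The 16 ratio differences kept their direction in all 128 alternatives. Counts limit Psmb11 and Psma8, which had at most 3 and 30 counts in a library.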
